A study of Rattus norvegicus with 18 samples.

Results

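The effect of the dopamine lesion without any drug was followed in the 6 striata of the 3 untreated (UNT) rats, out of 18 striata of 9 rats in the whole series. The members were chosen by their labels alone, with no measured value: 3 lesioned striata against 3 control striata, paired by replicate number. All 9 animals were juvenile male Wistar rats whose left medial forebrain bundle was injected with 6-hydroxydopamine (6-OHDA) on postnatal day (PND) 21. UNT rats were then injected with saline between PND 35 and 49 and once more on PND 53, the day on which their striata were taken, while the other rats received L-DOPA alone or together with Riluzole. The control side is the uninjected hemisphere of the same animal, so that the lesion and the left hemisphere cannot be told apart, and no sham-operated rat was among the samples.

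6-OHDA is a toxin that dopamine neurons take up through their own transporter, and its injection into the medial forebrain bundle removes the dopamine fibres that run from the midbrain to the striatum. The striatum keeps its own neurons, mostly GABAergic projection neurons with D1 or D2 dopamine receptors, together with interneurons, astrocytes, microglia, oligodendrocytes and vessels. Methylation of the cytosine in a CpG is a mark that is low at active, CpG-rich promoters and high over most of the remaining genome, and the lost dopamine fibres carry almost no DNA in the striatum because their nuclei lie in the midbrain. In this bulk tissue, a change in the share of a cell type and a change of methylation inside its cells cannot be told apart.

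Reduced representation bisulfite sequencing (RRBS) reads the CpGs near MspI sites, where unmethylated cytosines are read as T after bisulfite. The UNT libraries held between 30304520 and 49146750 CpG calls with a median of 18 to 23 reads per kept cytosine. The reads on the X chromosome were 0.600 to 0.612 times as deep as on the autosomes, as in animals with 1 X. Of the unmethylated spike-in DNA, 0.681%, 0.718% and 0.928% was read as methylated in the control libraries and 0.562%, 0.477% and 0.512% in the lesioned libraries, so the sides did not overlap in this conversion control. The methylated spike-in lay between 98.2% and 98.5% in all 6. Expression was not analysed here, so the tissue label and the loss of dopamine fibres were not checked against marker genes.

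The mean methylation of the striatum differed between the sides by less than the spread of 3 rats. Over 724400 CpGs present in all 6 striata, it was 46.2%, 46.1% and 45.6% in the control striata and 45.9%, 45.7% and 46.1% in the lesioned striata. The lesioned side was lower in rats 1 and 2 and higher in rat 3, and the groups overlapped. The difference was -0.0896 ± 0.513 points (SD, n = 3 rats, exact two-sided permutation test over sign changes p = 1, where 0.25 is the smallest p that 3 pairs allow). On 20 of 20 autosomes, rats 1 and 2 were lower on the lesioned side and rat 3 was higher, and the mean difference of an autosome lay between -0.167 and -0.0271 points. A difference between animals and one between their libraries cannot be told apart here. The 19 mitochondrial CpGs, which are nearly unmethylated, read 0.846%, 0.814% and 0.93% on the control side and 0.722%, 0.675% and 0.828% on the lesioned side, lower in all 3 rats as in the unmethylated spike-in. Over all mitochondrial calls, without the read minimum, the sides overlapped and rat 2 was higher on the lesioned side. There the control side read 1.100%, 1.064% and 1.139% and the lesioned side 1.098%, 1.089% and 1.113%.

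The same pattern was present in each class of CpGs. The 313902 CpGs with a mean under 20% averaged 2.40%, 2.32% and 2.24% on the control side and 2.36%, 2.27% and 2.27% on the lesioned side. The part of the higher spike-in background of the control libraries in these low values was not tested. The 148658 CpGs between 20 and 80% showed the widest within-rat differences, which were -1.17, -1.51 and 1.58 points in rats 1 to 3. The 261840 CpGs over 80% averaged 92.06 ± 0.151% (SD, n = 3) on the control side and 92.05 ± 0.262% on the lesioned side. Among CpGs with 5 or more covered CpGs within 100 bp, the setting of CpG islands, the difference was -0.0166 ± 0.134 points, and among CpGs with no covered neighbour it was -0.216 ± 0.988 points. Every class had rat 3 against rats 1 and 2, with an exact p between 0.50 and 1.

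**Figure D1:**
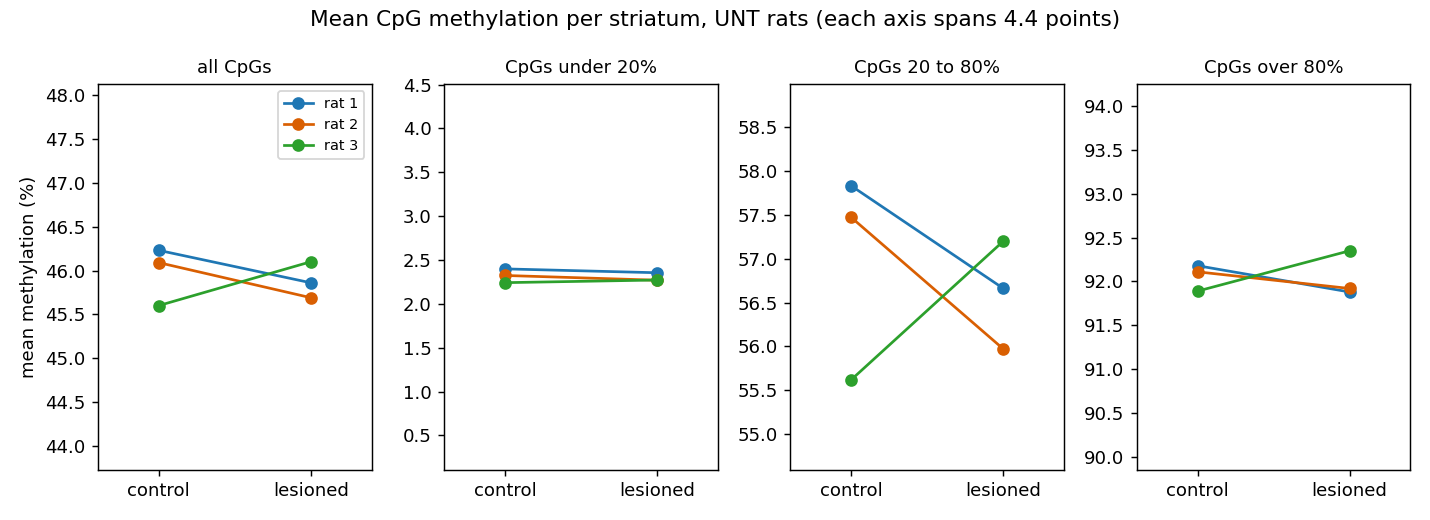
Mean CpG methylation (%, vertical axis, each panel spanning the same 4.4 points) of both striata of each UNT rat (control, then lesioned), over all CpGs and over 3 classes by mean level, with lines that join the striata of a rat. Rats 1 and 2 fall and rat 3 rises in the panels of all CpGs, of CpGs from 20 to 80% and of CpGs over 80%, and the widest steps, -1.17, -1.51 and 1.58 points, are in the class from 20 to 80%.

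Promoters were looked at next, because dopamine loss changes the activity of many striatal genes. The RefSeq promoter sequences (250 bases before to 50 bases after a start, assembly GRCr8) were placed on the rn6 positions of the files by the spacing of their CpGs, and 4482 promoters of 4132 genes had at least 3 CpGs present in all 6 striata. With their reads summed, 0 of these promoters was called at a q under 0.01 by the logistic test with the rat as a block (percent called 0%, smallest q 0.0929). At an unadjusted p under 0.05, 372 promoters (8.3%) were found, 192 higher and 180 lower on the lesioned side, and limma's moderated test gave 0 calls and 167 promoters at an unadjusted p under 0.05. The median promoter was methylated at 1.05%, and 4133 of the 4482 stayed under 5% in every striatum. The 95% interval of limma for the difference lay within 5 points on either side of 0 for 95.9% of the promoters.

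Promoters of 4 genes that mark the dopamine synapse and its response are shown here as examples of what was measured, in capitals the CpGs present in all 6 striata (RefSeq, GRCr8, 5′ to 3′ on the strand of the gene).
Slc6a3: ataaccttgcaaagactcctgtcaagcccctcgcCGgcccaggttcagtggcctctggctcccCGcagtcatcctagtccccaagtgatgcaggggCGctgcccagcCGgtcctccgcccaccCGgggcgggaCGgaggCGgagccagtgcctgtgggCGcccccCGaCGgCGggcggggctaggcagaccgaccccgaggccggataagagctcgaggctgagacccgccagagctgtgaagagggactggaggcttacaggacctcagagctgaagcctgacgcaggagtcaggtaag
Drd2: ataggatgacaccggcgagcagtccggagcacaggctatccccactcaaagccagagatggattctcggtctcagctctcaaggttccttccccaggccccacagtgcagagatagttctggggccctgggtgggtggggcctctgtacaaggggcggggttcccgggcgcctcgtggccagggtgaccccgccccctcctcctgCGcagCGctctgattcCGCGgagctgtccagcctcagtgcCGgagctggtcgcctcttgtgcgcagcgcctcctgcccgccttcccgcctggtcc
Chrm4: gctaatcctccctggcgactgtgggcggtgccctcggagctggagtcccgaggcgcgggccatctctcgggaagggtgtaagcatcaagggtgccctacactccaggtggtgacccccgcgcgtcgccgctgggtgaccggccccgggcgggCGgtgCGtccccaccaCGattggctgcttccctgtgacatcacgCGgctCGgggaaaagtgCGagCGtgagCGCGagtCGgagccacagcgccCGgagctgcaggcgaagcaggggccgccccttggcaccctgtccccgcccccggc
Fosb: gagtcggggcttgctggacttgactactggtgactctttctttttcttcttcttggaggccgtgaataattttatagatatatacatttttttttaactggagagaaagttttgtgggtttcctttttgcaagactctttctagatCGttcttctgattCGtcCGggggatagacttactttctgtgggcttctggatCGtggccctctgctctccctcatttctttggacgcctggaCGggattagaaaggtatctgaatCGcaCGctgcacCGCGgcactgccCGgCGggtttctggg

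Slc6a3 encodes the dopamine transporter, Drd2 the D2 receptor of indirect-pathway neurons, Chrm4 the muscarinic M4 receptor of direct-pathway neurons, and Fosb a transcription factor of the Fos family that responds to neuronal activity. The 11 measured CpGs of the Slc6a3 promoter lay on the minus strand between chr1:32364061 and 32364198 of rn6, and their summed methylation was 1.47%, 0% and 1.93% in the control striata and 1.5%, 2.74% and 2.88% in the lesioned striata. The 5 CpGs of the Drd2 promoter, on the plus strand from chr8:53678732 to 53678772, read 0%, 1.69% and 1.64% against 7.14%, 1.47% and 1.72%. The high value was that of rat 1 alone, and the 95% interval of limma for the difference ran from -1.96 to 6.51 points.

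At Chrm4 (11 CpGs, plus strand, chr3:80833174 to 80833267), the control striata had 1.21%, 2.44% and 0.629%, and no methylated read was found in any lesioned striatum. The groups did not overlap, which was the case for 9.19% of all promoters, and the call was not reached (q = 0.22). The counts summed over the 11 CpGs were 123 to 165 per striatum, and a read is counted at each CpG that it covers. The difference of -1.43 points thus rests on a few methylated counts. The 11 CpGs of the Fosb promoter (minus strand, chr1:80221378 to 80221520) had 0.624%, 0.569% and 0.510% on the control side against 0.145%, 0% and 0.468% on the lesioned side, a difference of -0.363 ± 0.282 points (SD, n = 3) with a q of 0.762. Both Chrm4 and Fosb lay in the direction of the spike-in background, and its part in them was not tested.

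Of the dopamine and projection neuron genes, 5 of 26 had a promoter that could be tested, and 0 of them was called. Besides the 3 above, these were Gch1, the first enzyme of tetrahydrobiopterin synthesis, with a difference of 0.362 points, and Adcy5, the main adenylyl cyclase of the striatum, with 0.848 points. The median of the 5 was 0.848 points beside 0.00627 points over all promoters. Of 22 activity-regulated genes, 7 were tested (Btg2, Creb1, Dusp1, Dusp6, Egr2, Fosb and Ier2), all under 5% in every striatum, with differences between -0.866 and 0.621 points. The glutamate receptor promoters of Grik3 and Grm7 differed by 0.483 and 0.751 points. Of the writers, erasers and readers of DNA methylation, Gadd45a, Gadd45b, Mbd2 and Mbd3 were tested. Gadd45b, a gene tied to active demethylation, had 0%, 0.362% and 0.948% on the control side and 1.26%, 1.20% and 1.88% on the lesioned side, the opposite direction to the spike-in background, with a q of 0.402. The single glial promoter tested, that of the oligodendrocyte gene Cnp, differed by 0.49 points. In these 5 lists 0 promoters were called, and Chrm4 and Gadd45b had an unadjusted p under 0.05, which was found for 8.3% of all promoters.

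The CpG-level test asked whether single CpGs differed. Of 724400 CpGs, 29 were called at a q under 0.01 (percent called 0.004%), of which 13 were higher (0.00179%) and 16 lower (0.00221%) on the lesioned side, and 26 had moved the same way in all 3 rats, beside 14.3% of all CpGs. The sides did not overlap at 26 of the 29, beside 6.2% of all CpGs, and the test that chose them used the same values. At an unadjusted p under 0.05, 7.49% of the CpGs were found. The F test and limma's moderated test on the percentages called 0 CpGs, with 198 and 31688 at an unadjusted p under 0.05. With 2 residual degrees of freedom, the F test could not bring a single CpG to a q under 0.01 over so many CpGs. Its 0 calls were thus fixed in advance.

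Many of the calls were at CpGs whose strands were kept unevenly. RRBS reads the plus and minus strands of a CpG from different fragment ends, and each strand was kept in a striatum where it had 10 or more reads. At 15 of the 29 called CpGs, the strands kept were not the same in all 6 striata, as was the case for 16.7% of all CpGs tested. At 13 of these 15, the strands themselves differed by 57.7 to 97.7 points over all reads of both sides. The CpG with the smallest p, chr5:158037946, read 100%, 86.7% and 94.1% in the control striata and 0%, 6.67% and 0% in the lesioned striata, with no overlap. Over all reads of a side, its plus strand was methylated at 93.0% in the controls and 92.9% in the lesioned striata, and its minus strand at 0% and 2.86%. Within a strand, the sides thus differed by a few points at most. The plus strand alone had passed the read minimum in the control striata, and the minus strand alone in the lesioned striata.

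The same held for others of the 10 named CpGs. At chr4:31090020, the merged values were 52.2%, 29.4% and 48.6% against 0%, 0% and 3.57%, while the minus strand read 88.4% and 83.3% and the plus strand 3.92% and 2.08%. At chr4:81765635, 29.3%, 25% and 27.6% stood against 1.52%, 2.70% and 7.32%, with a minus strand at 90% and 95.5% and a plus strand at 8.12% and 3.47%. At chr10:104538671, where 61.1%, 95.7% and 61.9% became 97.9%, 100% and 100%, the plus strand read 90.8% and 98.6% and the minus strand 3.12% and 0%. These sites had high and low strands on both sides of the brain, with smaller differences within a strand.

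Further named CpGs with strands that were not kept in all striata were chr1:255338786, chr6:106592353 and chr4:41321316. The first rose from 98.6%, 78.0% and 78.2% to 100% in each lesioned striatum, with a minus strand at 97.3% and 100% and a plus strand at 0% and 23.8%. The second fell from 19.1%, 19.6% and 14.3% to 0%, 2.50% and 0%, while its minus strand stood at 0.546% and 0.599% and its plus strand at 88.6% and 95%. The third fell from 11.7%, 20.5% and 15.2% to 0%, 2.08% and 0%. There the plus strand itself read 8.24% and 0.625%, so that a part of the difference was found within a strand.

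At the 3 remaining named CpGs, each strand that was read differed in the direction of the call. At chr5:144140671, covered by its minus strand alone in all 6 libraries, methylation was 58.3%, 72.1% and 73.7% in the control striata and 30.4%, 28.9% and 27.3% in the lesioned striata. The groups did not overlap, and the mean difference was -39.2 points (q = 1.04e-04). At chr20:29149890, with its plus strand alone, 92.4%, 96.4% and 90.5% fell to 71.8%, 68.2% and 69.2%. At chr3:12686416, no methylated read was kept in the control striata, and the lesioned striata had 10.6%, 14.3% and 17.1%, where the plus and minus strands both rose, to 11.1% and 12.9% over all reads. With strands kept in all 6 striata, this last CpG kept a difference of 12.9 points, beside 14.01 points, at a q of 0.0394.

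**Figure D2:**
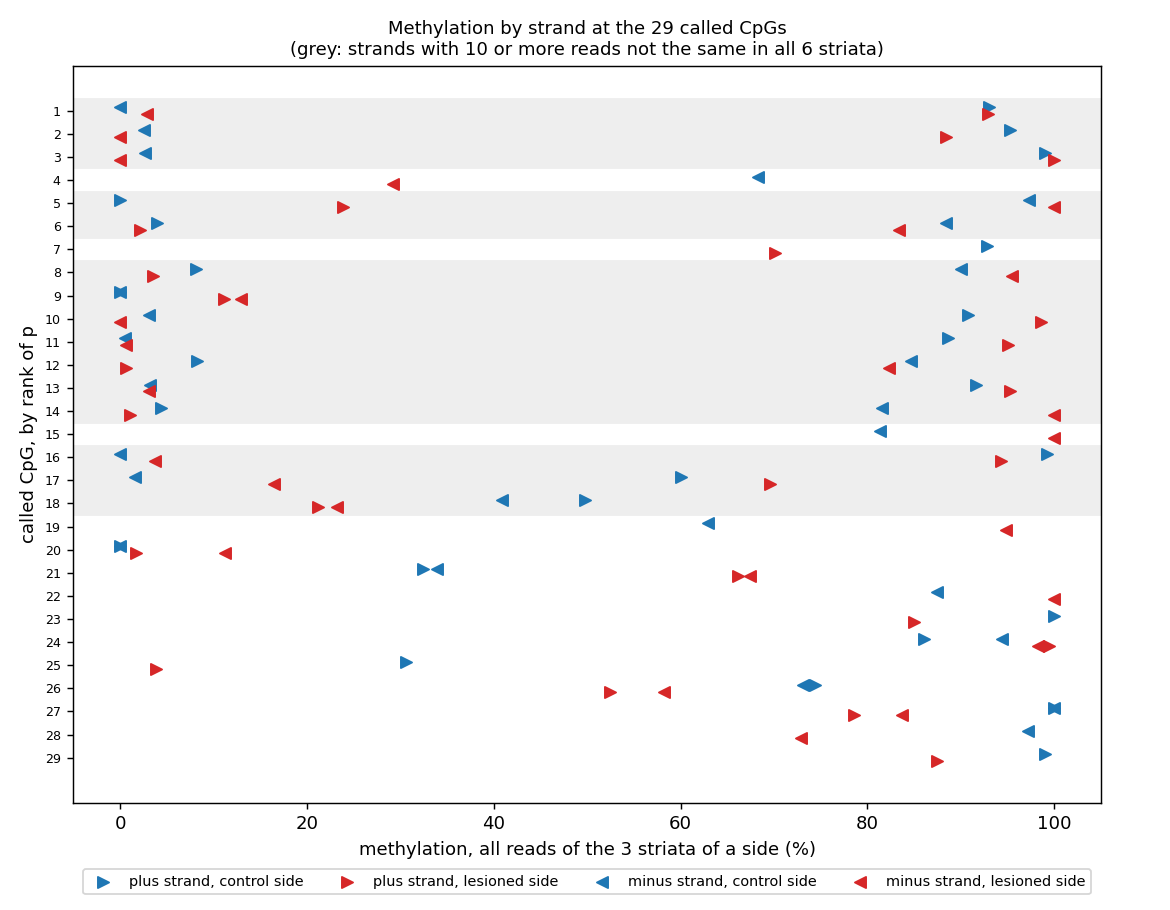
Methylation (%, horizontal axis, all reads of the 3 striata of a side) of the plus and the minus strand of each of the 29 called CpGs, ordered from the smallest p at the top, for the control side (blue) and the lesioned side (red). In most of the 15 grey rows the triangles of the same strand lie together on both sides and the strands lie far apart, as at rank 1 with 93.0% and 92.9% on the plus strand and 0% and 2.86% on the minus strand.

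The test was therefore repeated on the 808654 cytosines kept on their strand in all 6 striata, an alternative chosen after seeing the data. Merged to 712594 CpGs, it called 3 CpGs, all among the 29. Of the 26 others, 11 had the same strands and the same difference as before and moved just past the threshold (q from 0.0141 to 0.0179). The 3 CpGs still called were chr5:144140671, chr20:29149890 and chr5:170821098, the last with 75.0%, 81.2% and 87.2% in the controls and 100% in every lesioned striatum. Of the 14 called CpGs with the same strands in all striata, 6 were higher and 8 lower, by 8.64 to 39.2 points in absolute value. The covered CpGs within 100 bp had a mean difference of the same sign at 10 of the 13 of these that had such a neighbour, with a median of 5.62 points in the direction of the call beside 17.3 points at the called CpGs. Over all 28 called CpGs with a neighbour, the sign was shared at 14. A position 46 to 50 bases past another cytosine of the same strand, near the end of a 50-base read, was held by 15 of the 29 called CpGs and by 13.05% of all CpGs. Of these 15 called CpGs, 12 also had strands that were not the same in all 6 striata. The part of such positions in the calls was not tested apart from leaving them out, which left 5 calls.

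Regional change was tested on fixed 1 kb windows with at least 3 CpGs, in which the reads of the CpGs were summed. A read is counted in such a sum at each CpG that it covers. The summed counts thus exceed the number of reads and are not independent. Of 85028 windows, 129 were called at a q under 0.01 (percent called 0.152%), 47 higher (0.0553%) and 82 lower (0.0964%) on the lesioned side, and 128 of them moved the same way in all 3 rats, beside 24.1% of all windows. In 110 of the 129 the sides did not overlap, which was so for 9.28% of all windows, and the test that chose the windows used the same values. The absolute difference of the called windows had a median of 11.5 points and ran from 1.92 to 40.6 points, with 14 windows at 20 points or more. Over all windows the median was 1.42 points, and 8.95% had an unadjusted p under 0.05. The overdispersion was above its floor in 26 of the 129 windows and in 4 of the 29 called CpGs, and in the others p reflects counts and not the spread of rats. In windows these counts repeat a read at each CpG that it covers, so p can be too small. Without the block 29 windows were called, and the F test and limma's moderated test called 0, with 132 and 4891 windows at an unadjusted p under 0.05. As for the CpGs, the 0 calls of the F test were fixed in advance by its few degrees of freedom. By limma, 114 of the 129 had an unadjusted p under 0.05, beside 4891 of all 85028 windows. The 129 had been chosen on these same values, so a high share was fixed in advance. The smallest adjusted p of limma was 0.867.

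Of the 743 CpGs inside called windows, 653 had moved in the direction of their window, which was called on the sum of these same reads. A called CpG lay in 3 of the windows. With the cytosines kept on their strand in all 6 striata, 131 windows were called, of which 112 were shared with the 129. Windows with a mean from 20 to 80% made up 48.1% of the called and 28.2% of all windows, those over 80% made up 35.7% and 44.7%, and those under 20% made up 16.3% and 27.1%. Called windows were found on 21 chromosomes, with 2 of them on the X. Of the 129, 0 overlapped a placed promoter, beside 5.62% of all windows, and 8 (6.2%) had one within 10 kb, beside 13% of all windows. These counts cover the 4890 of 33469 promoter sequences that could be placed, and the difference was not tested.

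The window with the smallest p, chr19:24802001-24803000 (q = 1.15e-10), held 10 CpGs between 24802028 and 24802076 that were nearly unmethylated in the control striata. Its summed methylation was 1.77%, 1.94% and 0% on the control side and 27.6%, 14.6% and 2.00% on the lesioned side. The rise was uneven between the rats, the lowest lesioned striatum was just above the controls, and the call was lost without the block (q = 0.308). The summed counts of this window were 113 to 264 per striatum. Its 10 CpGs fit in 1 read of 50 bases, so a read could be counted up to 10 times. Taken singly, these CpGs had a q from 0.162 to 0.735. The second, chr8:59813001-59814000 with 9 CpGs, rose from 36.4%, 45.6% and 39.5% to 56.3%, 58.2% and 58.6%. Within it, the 4 CpGs from 59813300 to 59813332 rose most. The window chr7:58465001-58466000, with 4 CpGs, rose from 38.6%, 49.1% and 35.4% to 59.6%, 72.8% and 66.9%, and was not called without the block (q = 0.0448).

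Losses were seen in the other named windows. In chr3:95710001-95711000, with 3 CpGs, 74.3%, 53.1% and 68.9% stood against 36.1%, 17.5% and 20.8%, the widest mean difference among the called windows (-40.6 points). Its control striata had summed counts of 32 to 45 over the 3 CpGs, and it was not called without the block (q = 0.0288). In chr9:30437001-30438000, 4 CpGs fell together, from 76.8%, 74.5% and 77.9% to 48.7%, 50% and 42.6%. The 12 CpGs of chr5:165696001-165697000 fell from 82.0%, 82.6% and 80.6% to 75.8%, 72.5% and 69.9%, with counts that summed to at least 512 over these CpGs in each striatum. The call was lost at a minimum of 20 reads per cytosine (q = 0.0936).

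In chr20:29149001-29150000, 85.3%, 86.2% and 87.4% fell to 67.9%, 68.9% and 68.9%. This was the most even of the named windows, with a difference of -17.7 ± 0.697 points (SD, n = 3), and it contains the called CpG chr20:29149890. In chr10:89078001-89079000, 11 of 14 CpGs fell and the sum went from 64.0%, 60.0% and 56.4% to 49.9%, 46.6% and 48.2%. This window, 8.62 kb from the placed promoter of Tubg2, a gamma-tubulin gene, was not called on the cytosines kept on their strand in all 6 striata (q = 0.0125) or without the block (q = 0.0112). In chr1:105290001-105291000, 14.9%, 27.5% and 10% fell to 6.45%, 8.38% and 4.84%, which was not called without the block (q = 0.554).

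The ninth named window by p, chr1:11905001-11906000, had summed counts between 8556 and 18475 per striatum, and 8 sites listed for Rn5-8s, the 5.8S ribosomal RNA, lie in it. Its 23 CpGs differed far more between rats than between sides, with 24.8%, 11.3% and 45.0% on the control side and 22.2%, 10.5% and 42.7% on the lesioned side. Its difference of -1.92 points turned to 0.342 points once cytosines of extreme coverage were removed, and the call was lost. Reads of repeated ribosomal genes come from many copies that this position cannot separate. A further called window on this chromosome, chr1:11916001-11917000, holds 4 listed sites without a gene name and went the other way. It rose from 37.2%, 23.7% and 38.8% to 43.8%, 27.8% and 47.5%, by 6.47 points (q = 0.00482), with overlapping sides. With strands kept in all 6 striata it was still called (q = 0.00506).

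**Figure D3:**
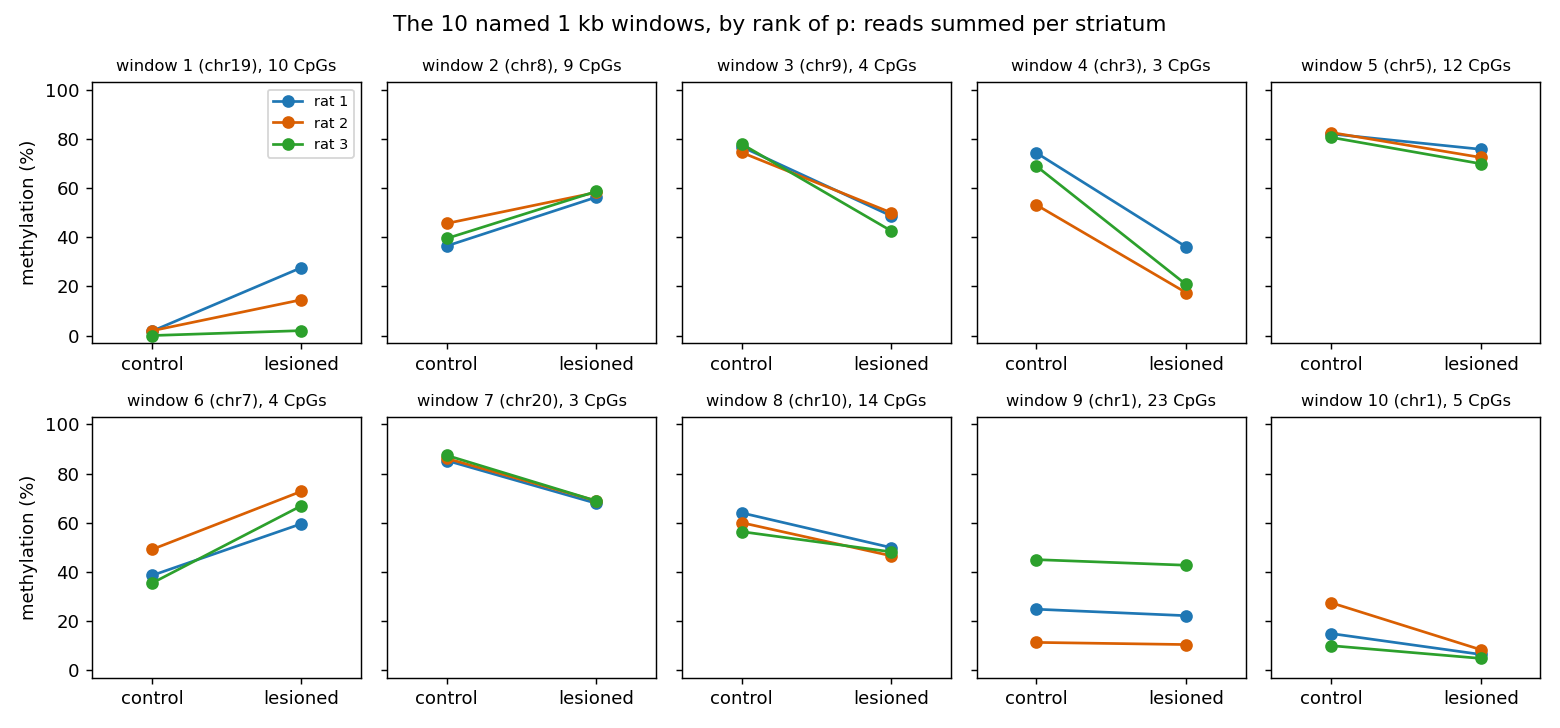
Summed methylation (%, vertical axis) of the 10 named windows in both striata of each UNT rat, by rank of p, with lines that join the striata of a rat. The lines of the 3 rats run in parallel in window 7 (from 85.3%, 86.2% and 87.4% to 67.9%, 68.9% and 68.9%), fan out in window 1 and are nearly flat but far apart in window 9, the ribosomal RNA window.

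Called windows near a named gene were taken up after their values were seen. The window chr16:3582001-3583000 holds a site listed in an intron of Erc2, which encodes a scaffold protein of the presynaptic active zone. It fell from 99.0%, 97.4% and 97.9% to 93.2%, 90.1% and 86.4% (q = 0.00162), with a summed count of at most 154 per striatum and each of its 3 CpGs lower. The groups of UNT did not overlap, and the call was lost without rat 3 (q = 0.0451).

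The window chr1:80214001-80215000 lies 6.37 kb from the placed Fosb promoter, on the side towards which Fosb is transcribed. It had 36.6%, 40.0% and 37.0% in the control striata and 19.0%, 24.7% and 10.9% in the lesioned striata, a difference of -19.7 ± 5.65 points (SD, n = 3) at a q of 0.00587. Its 3 CpGs at 80214556, 80214766 and 80214775 fell by 10.2, 38.5 and 35.7 points. The sides were well apart while the Fosb promoter itself was unmethylated on both. The call was lost without the block (q = 0.0162), when cytosines from 1 read on were counted (q = 0.43) and without any 1 of the 3 rats (q from 0.0286 to 0.216).

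The 5 remaining windows within 10 kb of a placed promoter with a gene symbol all rose. Near Degs2, a sphingolipid desaturase and hydroxylase gene, chr6:132607001-132608000 rose from 22.4%, 34.4% and 27.3% to 36.1%, 49.7% and 43.4%, at 0.551 kb from the promoter. Near Cabp1, which encodes a neuronal calcium-binding protein, chr12:47179001-47180000 rose from 42.2%, 59.0% and 35.5% to 69.0%, 71.4% and 64.3%. Near Dvl1, of the Wnt pathway, chr5:173302001-173303000 rose from 88.9%, 80.5% and 88.8% to 98.7%, 95.6% and 100%. Near Mapre1, a microtubule plus-end protein, chr3:149212001-149213000 rose from 94.6%, 92.4% and 92.0% to 99.3%, 99.0% and 100%, and near Zfand4, chr4:148192001-148193000 rose from 59.4%, 69.9% and 59.8% to 76.7%, 76.3% and 76.3%. Without the block, the windows near Degs2 (q = 0.281), Cabp1 (q = 0.0408), Zfand4 (q = 0.0171) and Dvl1 (q = 0.0488) were not called. In the drug-treated rats with a value, the mean difference was -2.42 points at the Erc2 window (5 rats), -0.478 points at the Fosb window (1 rat), -0.373 points near Degs2 (6 rats), -9.13 points near Cabp1 (2 rats), -0.745 points near Dvl1 (2 rats), 2.51 points near Mapre1 (4 rats) and -14.7 points near Zfand4 (5 rats). A distance to a promoter does not place a window in the gene, and the annotation of rn6 was not used here.

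The same contrast could be measured in the 6 rats that had the lesion and then L-DOPA or L-DOPA with Riluzole, whose striata did not choose the windows. Of the 63 called windows with values in all 6 of these rats, 42 had a mean difference of the same sign as in UNT (66.7%), beside 50.01% of all 42741 windows with such values. The size was much smaller, with a median of 1.12 points in the direction of UNT beside 9.03 points in UNT itself. The UNT sizes of called windows and CpGs come from the values that chose them. Smaller sizes in other rats can thus follow from the choice alone. The sign of UNT was kept in all 6 rats at 2 of the 63 windows (beside 1.51% of all windows), chr2:237350001-237351000 (-12.3 points in UNT and -6.83 in the mean of the 6 rats) and chr2:143433001-143434000 (-2.69 and -1.35 points), and chrX:156235001-156236000 had the opposite sign in all 6 (-13.5 and 11.5 points). No window passed the exact permutation test over sign changes after Benjamini-Hochberg adjustment (smallest adjusted p 0.656, with 0.0312 as the smallest p that 6 rats allow). With this smallest p and adjustment over 63 windows, no single window could have passed, however even its 6 rats. The adjusted test therefore cannot decide whether a given window repeats. Of the 18 called CpGs with values in all 6, 12 shared the sign (beside 49.97% of all CpGs), 0 kept it in all 6 rats (beside 1.04% of all CpGs), and the median was 1.17 points in the direction of UNT beside 17.9 points. These rats differ from UNT in treatment and in their libraries, which cannot be told apart.

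**Figure D4:**
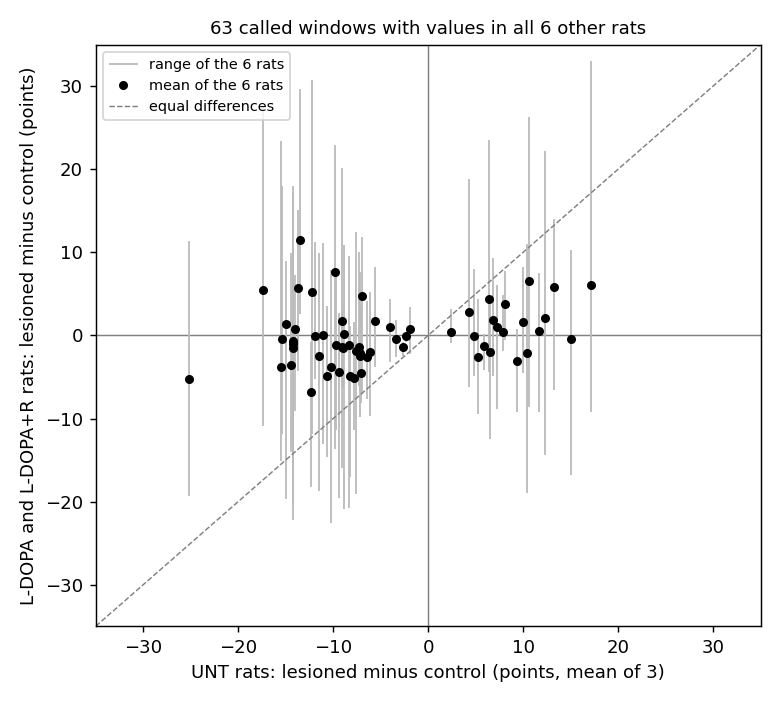
Lesioned minus control (percentage points) of the 63 called windows with values in all 6 drug-treated rats, in UNT (horizontal axis, mean of 3 rats) and in the drug-treated rats (vertical axis, point for the mean and grey line for the range of 6 rats), with a dashed line for equal differences. The points stay near the horizontal axis, with 42 of 63 on the side of UNT, and most grey lines cross 0.

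Single CpGs of neuronal and glial genes were taken from positions that the study lists for its treatment comparisons, so that the lists are not independent of the UNT libraries, though they were not chosen for a difference between sides. Of 2661 listed CpGs tested, 0 were called and 134 had an unadjusted p under 0.05 (5.04%, beside 7.49% of all CpGs). In dopamine and cAMP signalling, 17 CpGs of 13 genes were tested, 9 higher and 8 lower, and 0 had an unadjusted p under 0.05. At the deepest of these genes, Adcy10, a soluble adenylyl cyclase, an exonic CpG (chr13:83756955) had 37.5%, 23.0% and 29.4% against 38.04%, 38.4% and 27.1%, which overlapped. An intronic CpG of the cGMP phosphodiesterase Pde9a (chr20:10151302) had 44.9%, 48.1% and 41.3% against 55.7%, 55.3% and 54.1%. There the sides did not overlap, at a q of 0.688, and its second CpG differed by -7.63 points. Pde10a, a phosphodiesterase that is highly abundant in the striatum, had an intronic CpG (chr1:52448713) at 78.05%, 70% and 55.7% against 69.8%, 62.9% and 52.7%, with strands that were not the same in all 6 striata. The 3 other CpGs of Pde10a differed by 4.19, 8.71 and 1.49 points. An intronic CpG of Grk3, a receptor kinase, (chr12:49691639) differed by -0.028 points. Ddc, which makes dopamine from L-DOPA, had an intronic CpG (chr14:91958285) with a difference of -5.54 ± 6.30 points (SD, n = 3).

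Of the glutamate receptors and their scaffolds, 11 CpGs of 9 genes were tested and 1 had an unadjusted p under 0.05. It lay in an intron of Cacng4, an auxiliary subunit of AMPA receptors, at chr10:95987641, where 34.2%, 34.8% and 40.6% on the control side stood against 25.2%, 29.3% and 26.3% on the lesioned side, without overlap and with a q of 0.364. Grm4, the metabotropic receptor mGlu4 of corticostriatal terminals, had its deepest CpG (chr20:6932893) at 58.3%, 62.8% and 65.0% against 66.8%, 63.5% and 69.6%, and its 2 other CpGs differed by -4.63 and -2.46 points. Grm8, a related presynaptic receptor, differed by -0.411 points and Shisa7 by -2.39 points. Of the calcium genes, 14 CpGs of 12 genes were tested and 1 passed an unadjusted p of 0.05, the exonic CpG of Camkv (chr8:116727517, -5.27 points, q = 0.663). The deeply read intronic CpGs of the channel genes Cacna1a, Cacnb2 and Cacna2d3 differed by 0.0496, -2.58 and -1.15 points, and those of the calcium sensor Ncs1 by -0.457 points and, at chr3:10577268, by -9.3 points with a q of 0.706.

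Among genes of synapse adhesion, release and remodelling, 21 CpGs of 15 genes were tested, 14 higher and 5 lower, with a median of 2.08 points beside 0 over all CpGs. The CpG that passed an unadjusted p of 0.05 was one in an intron of Kalrn, a gene of dendritic spines. At chr11:69916907, 0%, 0% and 4.17% in the control striata stood against 22.6%, 8% and 20.7% in the lesioned striata (q = 0.207). The other CpGs of Kalrn, chr11:69693713 and chr11:69746947, differed by 1.36 and 4.12 points with overlapping sides. The deeply read intronic CpG of Disc1 (chr19:57878868) had 35.8%, 44.7% and 35.8% against 41.7%, 51.7% and 44.5%, higher in each rat, by 7.25 ± 1.43 points (SD, n = 3), at a q of 0.705, though its strands were not the same in all 6 striata. The other CpGs of Disc1, chr19:57904174 and chr19:57954110, differed by 2.08 and 0 points. Rph3a, Nrg1 and Syt6 differed by 3.26, -0.855 and -1.12 points.

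The list of glial and inflammation genes, which also holds general signalling genes such as Nfkb1 and Ikbkb, covered 12 CpGs of 9 genes, and 1 had an unadjusted p under 0.05. It lay in an intron of C4a, a complement component made by glia, at chr20:4407253, with 9.09%, 8.86% and 7.50% on the control side and 1.25%, 0% and 1.67% on the lesioned side. The sides did not overlap and the q was 0.152. The 2 other CpGs of C4a differed by -6.31 and 8.30 points with overlapping sides. The microglial gene Tmem119 (chr12:48601077) had 31.6%, 45.95% and 43.4% against 33.6%, 37.8% and 48.5%, the astrocyte channel gene Kcnj10 (chr13:90739641) had 29.6%, 40.8% and 29.1% against 29.8%, 33.3% and 27.0%, and the 2 intronic CpGs of P2rx7 differed by 1.43 and 0.962 points. None of these 3 genes had sides that stood apart, and a methylation level at 1 CpG does not count cells of a type.

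CpGs that differed between rats were compared across the hemispheres. At 2628 CpGs the 3 control striata spanned 50 points or more, and the deviation of a rat from the mean of the 3 on the control side was set against its deviation on the lesioned side, which had not been used for the choice. Between striata with the same replicate number, Pearson's r over these CpGs was 0.457, 0.435 and 0.64, and between different numbers it lay between -0.426 and 0.0337. CpGs are not independent, and no p is given. Deviations from a mean of 3 pull the r between different numbers below 0 by construction. Over all CpGs, r was weak, between 0.0387 and 0.0779 for the same number and between -0.0469 and 0.00135 for different numbers, and the root mean square difference between striata (8.77 to 10.05 points against 8.89 to 10.2 points) did not separate them.

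CpGs at which 1 control striatum stood at least 50 points from both others were then counted. There were 150 for rat 1, 197 for rat 2 and 353 for rat 3. On the lesioned side, the same rat stood apart in the same direction at 78.0%, 68.5% and 90.7% of them, with a median gap of 27, 14 and 52.4 points, while the median gap of the other rats in that direction was between -25.8 and -7.02 points. At chr16:82129721, the deepest example for rat 1, the control striata read 0.813%, 96.1% and 97.4% and the lesioned striata 0%, 96.3% and 97.7%. At chr6:142954954, 0%, 0% and 51.7% were found again as 0.524%, 0% and 51.1%, and at chr9:115469396, 0.952%, 73.5% and 23.1% as 0.758%, 73.7% and 38.6%. The values of the first and second of these CpGs were repeated to within about a point in the other hemisphere. Between sides, 0 of the CpGs of any rat was called, beside 0.004% of all CpGs. At that share so few CpGs would hold no call in any case, and nothing is read from this 0.

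**Figure D5:**
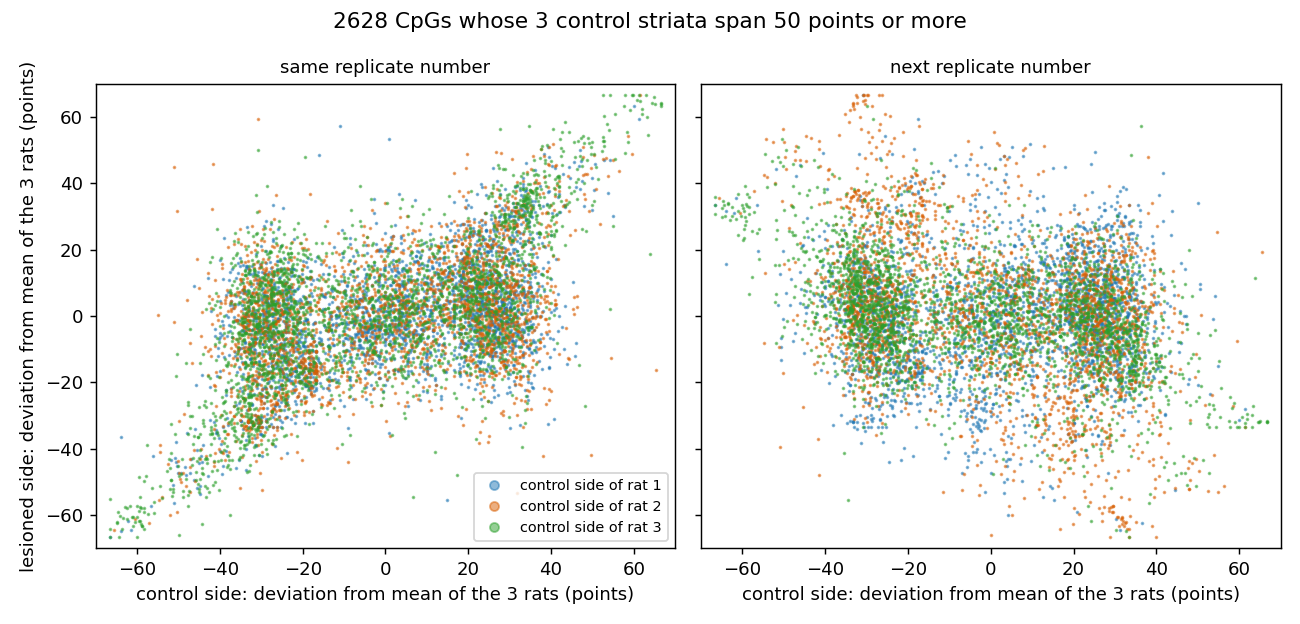
Deviation of each rat from the mean of 3 rats (percentage points) on the control side (horizontal axis) and on the lesioned side (vertical axis) at the 2628 CpGs whose control striata span 50 points or more, for striata with the same replicate number (left) and with the next number (right). On the left a diagonal arm reaches the corners for each rat (r of 0.457, 0.435 and 0.64), and on the right no such arm runs upward.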

How the data were processed

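Per the labels and the methods of the study, RRBS libraries were made with up to 6 samples pooled before bisulfite conversion, trimmed with Trim Galore 0.4.0 and mapped to rn6 with Bismark (0.14.3 in the methods). The authors deposited, for each striatum, the read count at each CpG cytosine and strand from 1 read on, without normalization, and the percent of these reads with C and with T. Methylated reads were rebuilt from count and percent and were whole in 100% of cases. Spike-ins were left out.

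Cytosines with 10 or more reads were kept, strands merged, and CpGs present in all 6 UNT striata, their sums over 1 kb windows (3 or more CpGs) and over placed promoters (3 or more CpGs) were tested with a logistic model with the rat as a block, overdispersion from Pearson residuals (floor 1), a chi-square test and Benjamini-Hochberg adjustment over all features of a table (q under 0.01), in Python 3.11.15, with limma 3.58.1 (R 4.3.3) as an alternative. The model was also run on simulated reads, drawn at random around a level that both striata of a rat shared. These had no uneven strands, no PCR copies and no added spread of the side difference between rats. The simulation therefore does not bear on such features of the data. The rat as a block follows the sample numbers, and whether these pair the striata was checked on CpGs that vary between rats. Where the overdispersion is at its floor, p-values reflect counts, and elsewhere also the spread of 3 rats. In windows and promoters a read is counted at each CpG that it covers, so these p-values can be too small. Percentages cover counting error only, and PCR copies were not removed. Windows, promoters and CpGs share reads and are not independent.

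A promoter was placed where every covered CpG in 300 bases fell on a CpG of the sequence, at least 8 did, no other place came within 3, and the chromosome was the same (4890 of 33469 sequences, 4488 genes, 99.8% on the same chromosome before that condition, rank correlation of the order with GRCr8 at least 0.9899 on each of 20 autosomes). Named CpGs and windows were the 10 with the smallest p among those called that changed the same way in all 3 rats. For listed genes, the 4 with the most reads per list were described. Members and lists were chosen with earlier results of these data known. The strand alternative, the promoter comparison and the windows near genes were chosen after seeing the data.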

Additional observations from a re-analysis of the deposited data

Results flagged for a closer look

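Called windows in which all 3 UNT rats moved one way and all 3 rats of another treatment the opposite way were picked out among those near a named gene or promoter. In chr4:148192001-148193000, near Zfand4, the lesioned side was higher in UNT by 17.2, 6.47 and 16.5 points and lower in the L-DOPA+R rats by a mean of -17.19 points. In chrX:156235001-156236000, 7.24 kb from the promoter of an unnamed locus, UNT fell from 58.8%, 40.4% and 62.2% to 47.7%, 31.1% and 42.1%, while the lesioned side was higher by a mean of 11.05 points in the L-DOPA rats and of 11.92 points in the L-DOPA+R rats. The call of the chrX window in UNT was lost without the block (q = 0.734), at 20 reads (q = 0.127) and with strands kept in all 6 striata (q = 0.0363), and that of the Zfand4 window without the block (q = 0.0171). The difference between the groups was not tested in any of these cases.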

How the results depend on the processing

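The mean difference of -0.0896 points became 0.112 points when CpGs were weighted by reads, and without 1 rat it ran from -0.383 to 0.0597 points. For CpGs, 14 calls were made without the rat as a replicate block, 0 by the F test, 0 by limma with the block, 58 without overdispersion correction, 55 at 20 reads, 2 with each strand on its own, 3 with strands kept in all 6 striata, 5 without cytosines 46 to 50 bases past another, and 30 to 54 without 1 rat, of which 3 to 7 were shared with the 29. For windows, 29 calls were made without the block, 0 by the F test, 0 by limma, 652 without overdispersion correction, 46 at 20 reads, 295 from 1 read on, 69 with at least 5 CpGs, and 165 to 265 without 1 rat, of which 29 to 40 were shared with the 129. The 0 calls of the F test, for CpGs and for windows, were fixed in advance by its 2 residual degrees of freedom. For promoters, 0 to 4 calls were made without 1 rat (3 without rat 2 and 4 without rat 3). The CpG chr6:106592353 turned to 0.109 points with strands kept, and the window chr1:11905001-11906000 to 0.342 points under the coverage limit. Of the other values of named CpGs, 74 kept direction and call and 56 kept direction alone, and for windows these were 175 and 87. Listed gene CpGs had 0 calls in every alternative run. The cause of these changes was not tested, apart from the fewer reads, CpGs or rats that an alternative leaves. With 3 rats, the 95% interval of limma reached a median of 5.28 points to either side for windows and 1.26 points for promoters, and lay within 10 points for 65.6% of windows.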
